A study of Mus musculus with 32 samples.

Results

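RNA from mouse photoreceptors of 2 genotypes was compared at a single circadian time, CT1, in 8 of the 32 libraries of the study. The KO group held 4 libraries of Per1-/-Per2Brdm1 mice and the WT group 4 libraries of WT mice. All animals were 6-week-old males of strain C57BL/6/J x 129 SvEvBrd, and the libraries were taken by their labels alone. Circadian time (CT) is given in hours after subjective dawn, and CT1 was the sampled time nearest to the daily peak of outer segment phagocytosis, which the study followed. The other 24 libraries covered CT19, CT22 and CT10, with 4 libraries for each genotype and time. Photoreceptors, the rods and cones that sense light, were isolated from frozen eyes with a laser microdissection instrument.

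The KO genotype combines a null allele of Per1 with the Brdm1 allele of Per2, known as a deletion inside the PAS domain, and the labels name no driver that would restrict either to photoreceptors. The title of the library called WT replicate 5 holds 2 animal numbers, and it was counted as 1 library. Each library was taken to be another animal on the strength of the numbers in the titles, and p-values otherwise measure only the spread between libraries. For edgeR that spread was estimated over all 32 libraries, and for the permutation tests over the 8 libraries of CT1. In bulk RNA of this kind, fewer cells of a type and less RNA per cell cannot be told apart.

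In the mammalian clock, CLOCK and BMAL1 (the product of Arntl) bind E-boxes and switch on Per, Cry, Rev-erb and Dbp genes, and PER and CRY proteins then repress CLOCK and BMAL1. DBP, TEF and HLF activate genes through D-boxes, where NFIL3 represses them. REV-ERB repressors (Nr1d1, Nr1d2) and ROR activators compete for a further element found in Arntl and Nfil3. Photoreceptors hold such a clock, and each day the tips of their outer segments are shed and engulfed by the retinal pigment epithelium.

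Library totals at CT1 lay between 24875415 counts (WT replicate 5) and 32605844 counts (KO replicate 4), so that 1 CPM before scaling rested on at least 24.9 counts. The 10 rod markers averaged 12.09 ± 0.04 log2 CPM in KO and 12.11 ± 0.16 log2 CPM in WT (SD, n = 4 each). CPM values are given after TMM scaling of the library totals, and a gene is called when its Benjamini-Hochberg adjusted p from edgeR's quasi-likelihood test, over 17871 tested genes, is under 0.05.

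At CT1, 282 of 17871 tested genes were called, 1.58% of them. Of these, 190 rose in KO (1.06% of tested genes) and 92 fell (0.515%). The median fold change was 1.75 among the higher genes and 0.62 among the lower ones, while the median log2 fold change of all tested genes was 0.0024. Among called genes, 101 had a log2 fold change of 1 or more in size, and 100 stayed under 0.58. In 265 of the 282 called genes no KO library overlapped a WT library, as was the case for 1207 of all tested genes (6.75%), with KO above in 3.40% and below in 3.36%. The called genes were selected for their difference in these same libraries, so their lack of overlap is no separate evidence. The count of lower genes was the less stable of the 2: it was 48 without KO replicate 6, 60 without KO replicate 4, 59 without WT replicate 5 and 148 without WT replicate 4. DESeq2 called 480 genes, of which 266 rose and 214 fell, so that the share of higher genes was 55.4% against 67.4% with edgeR, and 278 of its genes were among the 282. The annotation describes 244 of the called genes as protein coding, 14 as lincRNAs and 10 as processed pseudogenes.

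The targeted genes were read first. Per1 had 184, 208, 195 and 198 CPM in the KO libraries, against 94.4, 101, 143 and 98.8 CPM in the WT libraries (ENSMUSG00000020893, GRCm38 chromosome 11, 69095217 to 69109960, plus strand). Per2 had 204, 206, 169 and 206 CPM in the KO libraries, against 27.8, 24.9, 44.3 and 25.4 CPM in the WT libraries (ENSMUSG00000055866, GRCm38 chromosome 1, 91415982 to 91459324, minus strand). Both genes were higher in every KO library than in any WT library, and WT replicate 4 held the highest WT value of both. The fitted differences were 0.84 (SE 0.15, edgeR adjusted p = 0.000736) for Per1 and 2.68 (SE 0.18, edgeR adjusted p = 4e-11) for Per2 on the log2 scale. Counts were summed over the whole gene, so these values do not test the deleted parts, and with the alleles' layout not given in the labels they check neither label.

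Among the core clock genes, 14 of 24 were called at CT1, with 12 higher in KO and 2 lower, against 1.58% of all tested genes. Their median log2 fold change was 0.57, and all 24 passed the filter on low counts. Called higher were the 3 Per genes, both Cry genes, Ciart, both REV-ERB genes, Bhlhe41 and the D-box activators Dbp, Tef and Hlf, and called lower were Arntl and Nfil3. The list was drawn up with earlier results of these data known.

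The D-box activators were higher in KO. Tef had 436, 473, 455 and 427 CPM in the KO libraries, against 197, 182, 195 and 170.5 CPM in the WT libraries. The libraries of each genotype lay close together and far from those of the other, and no gene had a smaller p at CT1 (log2 fold change 1.27, SE 0.07, adjusted p = 1.83e-13, edgeR). Dbp, the founding member of the group, had 125, 155, 150.1 and 128 CPM in the KO libraries, against 43.8, 28.7, 33.6 and 37.95 CPM in the WT libraries (log2 fold change 1.95, SE 0.13, adjusted p = 7.98e-12, edgeR). Hlf, the last of the group, had 156, 147, 125 and 136 CPM in the KO libraries, against 67.2, 62.4, 66.5 and 54.3 CPM in the WT libraries (log2 fold change 1.17, SE 0.11, adjusted p = 1.59e-08, edgeR). KO and WT libraries did not overlap in any of the 3 genes. Their opponent at D-boxes, Nfil3, had 8.74, 8.99, 6.84 and 10.2 CPM in the KO libraries, against 21.2, 24.5, 26.1 and 30.6 CPM in the WT libraries. It was lower in every KO library than in any WT library (log2 fold change −1.55, SE 0.19, adjusted p = 2.12e-06, edgeR). Activators and repressor of the same element thus moved in opposite directions.

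The repressors of CLOCK and BMAL1 were higher in KO. Ciart, whose product binds BMAL1, had 11.4, 12.8, 17.3 and 15.2 CPM in the KO libraries, against 1.76, 2.07, 3.12 and 1.46 CPM in the WT libraries, the largest fold change of the list (log2 fold change 2.75, SE 0.23, adjusted p = 8.63e-10, edgeR). Per3, the Per gene left intact, had 374, 388, 426 and 354 CPM in the KO libraries, against 99.2, 126, 202 and 96.8 CPM in the WT libraries. Its WT values were widely spread, with replicate 4 highest, but stayed below every KO library (log2 fold change 1.56, SE 0.17, adjusted p = 6.41e-07, edgeR). Cry2 averaged 158 ± 7.56 CPM in KO and 72.1 ± 6.39 CPM in WT (SD, n = 4 each), a log2 fold change of 1.13 (SE 0.08, edgeR adjusted p = 5.27e-11). Cry1, the other cryptochrome, averaged 90.1 ± 2.95 CPM in KO and 67.8 ± 4.75 CPM in WT with a smaller fold change (0.41, SE 0.07, edgeR adjusted p = 0.000595). Bhlhe41, an E-box repressor, had 351, 344, 351 and 343 CPM in the KO libraries, against 156, 199, 234 and 181 CPM in the WT libraries. The KO libraries were nearly equal and all above WT (log2 fold change 0.85, SE 0.10, adjusted p = 1.25e-06, edgeR). Its paralog Bhlhe40 also did not overlap, with 6.63, 11.3, 8.67 and 12.3 CPM in the KO libraries, against 4.92, 4.65, 5.72 and 6.23 CPM in the WT libraries, but was not called (0.86, SE 0.23, edgeR adjusted p = 0.0552).

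The REV-ERB genes were higher and their target Arntl lower. Nr1d1 had 297, 303, 278 and 304 CPM in the KO libraries, against 158, 178, 197 and 179.6 CPM in the WT libraries (log2 fold change 0.73, SE 0.10, adjusted p = 2.08e-05, edgeR). Nr1d2 had 339, 279, 286 and 287 CPM in the KO libraries, against 169.9, 167, 167 and 145 CPM in the WT libraries (log2 fold change 0.88, SE 0.08, adjusted p = 1.59e-08, edgeR). Neither gene overlapped between the genotypes. Arntl had 95.5, 96.5, 96.6 and 101 CPM in the KO libraries, against 152, 162, 157 and 153 CPM in the WT libraries. These were among the tightest groups of the list, and every KO library was below every WT library (log2 fold change −0.68, SE 0.06, adjusted p = 8.81e-09, edgeR). The partner gene Clock averaged 173 ± 16.4 CPM in KO and 159 ± 20.9 CPM in WT (SD, n = 4 each) and was not called (0.12, SE 0.09, edgeR adjusted p = 0.579). The ROR genes Rora and Rorb, the kinases Csnk1d and Csnk1e, the ubiquitin ligase subunit Fbxl21, and Npas2 were not called either, with adjusted p between 0.381 and 0.903 (edgeR). Libraries of the genotypes overlapped in all 6 of these genes, and the sign of Csnk1e turned without WT replicate 4.

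**Figure D1:**
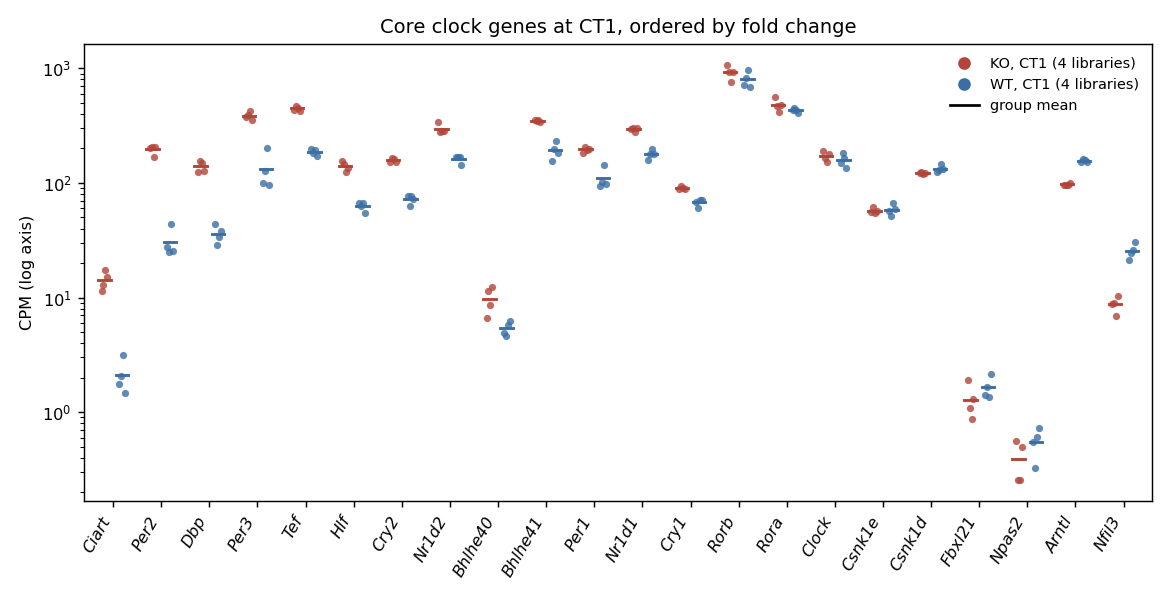
CPM of 22 core clock genes at CT1 on a log axis, in order of fold change. Each point is 1 library, with KO left of WT for each gene, and bars are group means. From Ciart to Cry1 all KO points lie above the WT points, in Arntl and Nfil3 all lie below them, and the groups overlap in the genes between Cry1 and Arntl.

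Promoter sequence was read for the called genes from RefSeq windows (GRCm38.p6) of 250 bases before to 50 bases after a gene's start. At least 1 window was matched by symbol for 50 of the 60 genes named by the rule, and for 13 of the 14 called clock genes. The stretches shown were picked because they carry elements that the moving clock factors bind, and not every called clock gene holds one. Matches are in capitals, positions are counted from the start, and each stretch is read 5′ to 3′ on the gene's strand. Ciart (chr3:95882222-95882389, minus strand, positions −161 to 7) holds 3 copies of the E-box CACGTG. Per3 (chr4:151044771-151044915, minus strand, −250 to −106) holds 2 copies of the D-box TTATGTAA. Arntl (chr7:113207530-113207558, plus strand, 20 to 48) and Nfil3 (chr13:52981010-52981096, minus strand, −57 to 30), the 2 clock genes lower in KO, each hold 1 copy of TAGGTCA, the core of the element shared by REV-ERB and ROR proteins, which in Nfil3 lies on the opposite strand and reads TGACCTA.
Ciart: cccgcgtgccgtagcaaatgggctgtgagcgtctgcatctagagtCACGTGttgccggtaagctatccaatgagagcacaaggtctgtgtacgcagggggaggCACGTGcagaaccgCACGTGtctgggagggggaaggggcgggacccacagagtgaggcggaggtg
Per3: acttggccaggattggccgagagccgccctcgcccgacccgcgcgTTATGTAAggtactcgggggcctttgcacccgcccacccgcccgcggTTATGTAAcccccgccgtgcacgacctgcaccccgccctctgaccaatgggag
Arntl: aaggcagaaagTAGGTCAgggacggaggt
Nfil3: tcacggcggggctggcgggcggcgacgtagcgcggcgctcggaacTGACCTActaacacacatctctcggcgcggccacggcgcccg

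Over all called genes, the windows were searched for the same elements, and the shares are given as a description, with no test. The motifs searched, each on both strands, were CACGTG, TTATGTAA or TTACGTAA, and TAGGTCA, and matches did not overlap one another in the stretches shown. The E-box was present for 28 of 132 genes higher in KO that had a window (21.2%), for 5 of 70 lower genes (7.14%) and for 1285 of 11435 tested genes (11.2%). The D-box was present for 9 of 132 higher genes (6.82%), for 0 of 70 lower genes and for 102 of 11435 tested genes (0.892%). TAGGTCA was present for 4 of 132 higher genes (3.03%), for 5 of 70 lower genes (7.14%) and for 255 of 11435 tested genes (2.23%). Of the 13 called clock genes with a window, 5 held the E-box (38.5%), 1 the D-box (7.69%) and 2 TAGGTCA (15.4%). Over all 32851 windows of the table the shares were 7.15%, 1.06% and 2.61% for E-box, D-box and TAGGTCA. A match describes letters in the window and no binding was measured.

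Outside the clock, the highest named genes at CT1 (protein coding, average log2 CPM of at least 1) included collagen, anchoring and guidance proteins. Col4a3, a type IV collagen chain of basement membranes, had 289, 276, 230.1 and 238 CPM in the KO libraries, against 23.1, 34.7, 22.5 and 19.6 CPM in the WT libraries (log2 fold change 3.37, SE 0.26, adjusted p = 1.06e-09, edgeR). Col4a4, its neighbour on chromosome 1, encodes the chain it assembles with and had 112, 102, 61.04 and 75.5 CPM in the KO libraries, against 18.6, 22.9, 28.4 and 18.2 CPM in the WT libraries (log2 fold change 1.99, SE 0.20, adjusted p = 1.3e-07, edgeR). Akap5, which anchors protein kinase A near its targets, had 16.5, 15.2, 10.4 and 14.1 CPM in the KO libraries, against 1.66, 1.64, 1.58 and 1.46 CPM in the WT libraries. The WT libraries lay within a narrow band and every KO library was far above it (log2 fold change 3.14, SE 0.23, adjusted p = 4.34e-11, edgeR). Lonrf3, a RING finger protein gene, had 4.32, 8.83, 3.42 and 7.35 CPM in the KO libraries, against 0.1303, 0.691, 0.338 and 1.29 CPM in the WT libraries. Its values varied widely within both genotypes but did not overlap (log2 fold change 3.32, SE 0.53, adjusted p = 0.000248, edgeR).

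Rasl10b, which encodes a Ras-like GTPase, had 102, 104, 109 and 114 CPM in the KO libraries, against 34.7, 24.97, 24.4 and 33.01 CPM in the WT libraries (log2 fold change 1.87, SE 0.13, adjusted p = 2.05e-11, edgeR). Eif3b, a subunit of translation initiation factor 3, had 154, 192, 176 and 159 CPM in the KO libraries, against 73.2, 70.2, 67.8 and 76.9 CPM in the WT libraries (log2 fold change 1.24, SE 0.09, adjusted p = 4e-11, edgeR). Pdzd8, a lipid-transfer protein of the endoplasmic reticulum, had 294, 258, 272 and 246 CPM in the KO libraries, against 120.4, 135, 124 and 122 CPM in the WT libraries (log2 fold change 1.09, SE 0.08, adjusted p = 5.27e-11, edgeR). In none of the 3 genes did the genotypes overlap. Baiap2, an adaptor of the actin cytoskeleton, averaged 15.6 ± 2.38 CPM in KO and 3.75 ± 0.868 CPM in WT (SD, n = 4 each), and Tpbgl averaged 18 ± 6.14 CPM in KO and 3.65 ± 1.79 CPM in WT. Their log2 fold changes were 2.06 (SE 0.19) and 2.30 (SE 0.33), with edgeR adjusted p of 8.81e-09 and 6.46e-05. Stk3, a kinase of the Hippo pathway, had 129, 82.1, 67.95 and 64.5 CPM in the KO libraries, against 26.6, 27.3, 13.99 and 17.1 CPM in the WT libraries (log2 fold change 2.01, SE 0.45, adjusted p = 0.0147, edgeR). KO replicate 1 held the highest value, and the call was lost in 3 of 19 alternatives, those without KO replicate 1, WT replicate 4 or WT replicate 5 (highest adjusted p 0.07).

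Fabp7, which encodes a fatty acid-binding protein of the nervous system, had the lowest fold change among the called genes. Its values were 0.105, 0.538, 0.1599 and 0.219 CPM in the KO libraries, against 4.95, 3.34, 3.72 and 8.12 CPM in the WT libraries (ENSMUSG00000019874, GRCm38 chromosome 10, 57784881 to 57788450, plus strand). The genotypes were far apart in all libraries (log2 fold change −4.26, SE 0.49, adjusted p = 7.11e-07, edgeR). A stretch upstream of the gene (chr10:57784707-57784803, plus strand, positions −216 to −120, RefSeq, GRCm38.p6) is shown because it holds TGACCTA, the reverse complement of the element in Arntl, here in capitals.
Fabp7: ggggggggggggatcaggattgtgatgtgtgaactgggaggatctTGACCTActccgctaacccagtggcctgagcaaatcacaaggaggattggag
Fabp12, a further family member, averaged 211 ± 15.9 CPM in KO and 247 ± 32.97 CPM in WT (SD, n = 4 each) and was not called (−0.23, SE 0.12, edgeR adjusted p = 0.388). The other 6 measured members of this list were not called, and its median log2 fold change was −0.19.

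Among the other genes lower in KO, Fscn2, the retinal fascin that bundles actin filaments, had 43.6, 54.2, 58.8 and 56.4 CPM in the KO libraries, against 180.1, 165, 116 and 172 CPM in the WT libraries (log2 fold change −1.57, SE 0.16, adjusted p = 5.46e-08, edgeR). WT replicate 4 was the lowest of the WT libraries and still far above the highest KO library. Hcls1, a cortactin relative known from blood cells, had 17.5, 18.2, 23.7 and 15.2 CPM in the KO libraries, against 53.7, 84.4, 75.3 and 63.6 CPM in the WT libraries (log2 fold change −1.89, SE 0.20, adjusted p = 2.2e-07, edgeR). Dock8, a guanine nucleotide exchange factor for CDC42, had 13.2, 10.4, 6.81 and 9.26 CPM in the KO libraries, against 23.8, 26.2, 25.5 and 34.7 CPM in the WT libraries (log2 fold change −1.47, SE 0.27, adjusted p = 0.00182, edgeR). Neither gene overlapped between the genotypes. Abi3, a member of the ABI family of WAVE complex subunits, averaged 2.69 ± 0.631 CPM in KO and 7.25 ± 1.296 CPM in WT (SD, n = 4 each), a difference of −1.43 on the log2 scale (SE 0.31) with an edgeR adjusted p of 0.00887. Hcls1, Dock8 and Abi3 are also expressed in microglia, whose 8 tested markers averaged −0.42 ± 0.25 log2 CPM in KO and −0.69 ± 0.70 log2 CPM in WT (SD, n = 4 each). Of 12 listed microglia markers 8 were tested, none was at 0 in all CT1 libraries, and their summed level was 13.7 to 19.2 CPM in KO and 14.2 to 22.5 CPM in WT. The part of microglia RNA in these differences was not tested. Exons of Abi3 also overlap Gngt2, a listed cone marker, and Zfp652 on the opposite strand. The strand setting is not given, and the part of their reads in the Abi3 counts was not tested.

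Col5a3, a fibrillar collagen chain, averaged 1.18 ± 0.109 CPM in KO and 4.9 ± 2.21 CPM in WT, Rab3il1, an exchange factor for Rab GTPases, 3.95 ± 0.939 CPM in KO and 11.9 ± 1.11 CPM in WT, and Wwc1, a scaffold of the Hippo pathway, 2.88 ± 0.775 CPM in KO and 8.17 ± 2.24 CPM in WT (SD, n = 4 each). Their log2 fold changes were −2.05 (SE 0.34), −1.59 (SE 0.26) and −1.50 (SE 0.23), with edgeR adjusted p of 0.000311, 0.00031 and 9.83e-05. None of the 3 overlapped between the genotypes. Krt18, an intermediate filament protein of simple epithelia, had 88.7, 56.1, 76.4 and 76.2 CPM in the KO libraries, against 206, 134, 138 and 197 CPM in the WT libraries (log2 fold change −1.18, SE 0.23, adjusted p = 0.00329, edgeR). Rab37, a GTPase of secretory vesicles, had 13.97, 12.1, 8.25 and 17.02 CPM in the KO libraries, against 40.96, 21.99, 24.97 and 32.1 CPM in the WT libraries (log2 fold change −1.23, SE 0.32, adjusted p = 0.0411, edgeR), and its call was lost in 8 of 19 alternatives, among them those without KO replicate 1, 4 or 5 and without WT replicate 1 or 5 (highest adjusted p 0.134). Igf2bp2, an mRNA-binding protein, had 5.12, 12.8, 2.53 and 5.63 CPM in the KO libraries, against 18.2, 19.1, 16.1 and 11.1 CPM in the WT libraries, and KO replicate 4 overlapped WT replicate 5 (log2 fold change −1.30, SE 0.33, adjusted p = 0.0378, edgeR). Its call was lost in 10 of 19 alternatives (highest adjusted p 0.305), among them those without KO replicate 1, 5 or 6 and without WT replicate 1, 3 or 4.

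**Figure D2:**
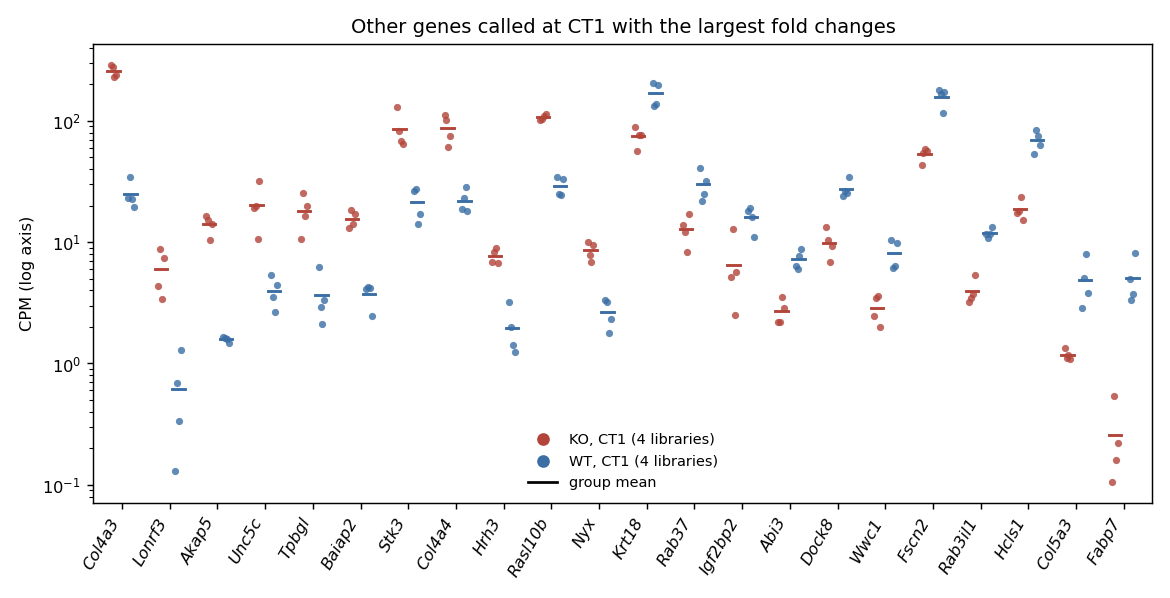
CPM at CT1 of the 11 highest and 11 lowest called genes named by the rule outside the clock list, on a log axis, from Col4a3 to Fabp7. Each point is 1 library, with KO left of WT for each gene, and bars are group means. Igf2bp2 is the only 1 of these genes in which KO and WT points overlap.

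Of 21 rod phototransduction genes 1 was called, lower in KO, against 1.58% of all tested genes, with a list median of −0.08. It was Gnb5, the G protein subunit that works with RGS9 to end the light response, at 1049, 1009, 1010 and 1008 CPM in the KO libraries, against 1278, 1183, 1156 and 1332 CPM in the WT libraries (log2 fold change −0.28, SE 0.07, adjusted p = 0.0313, edgeR). All KO libraries were below all WT libraries, but the difference was small and its call was lost in 10 of 19 alternatives, among them those with the lens marker level as a covariate, without any 1 of the 4 KO libraries and without WT replicate 1 or 5 (highest adjusted p 0.214). The arrestin Sag had 8808, 6748, 9979 and 9001 CPM in the KO libraries, against 5892, 6762, 3937 and 8224 CPM in the WT libraries, which overlapped, and was not called (0.48, edgeR adjusted p = 0.204).

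None of 14 cone phototransduction genes was called, against 1.58% of all tested genes, with a median of −0.22. At that share a list of this size holds fewer than 1 called gene. Opn1mw, the medium-wavelength cone opsin, had 222, 214, 149 and 162 CPM in the KO libraries, against 269.5, 243, 241 and 308 CPM in the WT libraries, and Pde6h, the inhibitory subunit of the cone phosphodiesterase, had 172, 84.5, 106 and 163 CPM in the KO libraries, against 299.8, 218, 229.5 and 266 CPM in the WT libraries. Neither overlapped between the genotypes, and the edgeR adjusted p were 0.105 and 0.113. In Opn1sw, the short-wavelength opsin, the libraries overlapped (log2 fold change −0.38, SE 0.25). Over all tested genes 6.75% did not overlap, against 4 of these 14. The 10 cone markers as a group averaged 7.13 ± 0.22 log2 CPM in KO and 7.45 ± 0.11 log2 CPM in WT (SD, n = 4 each; exact permutation p = 0.0571, two-sided, adjusted p = 0.228 over the 12 marker lists). Without KO replicate 5 this difference was −0.41 log2 CPM (exact permutation p = 0.0286). Without any other single library its exact permutation p was 0.0571 to 0.143. Against the same 1.58%, none of 13 retinoid cycle genes and none of 19 photoreceptor transcription factors was called, with smallest adjusted p of 0.171 and 0.162 (edgeR).

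Of 25 genes of outer segments, disks and the connecting cilium 2 were called, Fscn2 and Pcdh15, against 1.58% of all tested genes. Pcdh15, a protocadherin of the calyceal processes whose mutation causes Usher syndrome, had 663, 420.0, 378 and 352 CPM in the KO libraries, against 232, 277, 297 and 195 CPM in the WT libraries. KO replicate 1 stood far above the other KO libraries, and the call (log2 fold change 0.86, SE 0.22, adjusted p = 0.0433, edgeR) was lost in 9 of 19 alternatives, among them those with the inner retina marker level as a covariate, with only the CT1 libraries, without KO replicate 1 or 4 and without WT replicate 1, 3 or 5 (highest adjusted p 0.224). The structural disk proteins Prph2 and Rom1 averaged 9019 ± 332 CPM in KO and 10480 ± 1481 CPM in WT and 3414 ± 237 CPM in KO and 4157 ± 784 CPM in WT (SD, n = 4 each), and neither was called (edgeR adjusted p 0.394 and 0.323). Over these 25 genes the median log2 fold change was 0.03.

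The study sampled around the phagocytosis peak, and the genes that expose or recognise phosphatidylserine, the signal for engulfment, are read here. Of 23 tested flippase and scramblase genes 1 was called, and of 25 tested ligand and receptor genes none was called, against 1.58% of all tested genes. The called gene was Atp11a, a flippase that returns phosphatidylserine to the inner leaflet, with 809, 796, 731 and 788 CPM in the KO libraries, against 469, 590.1, 609.8 and 437 CPM in the WT libraries. Every KO library exceeded every WT library (log2 fold change 0.57, SE 0.10, adjusted p = 0.000705, edgeR), and the call held in all 19 alternatives. The flippase Atp9a averaged 46.3 ± 6.72 CPM in KO and 72.5 ± 9.93 CPM in WT (SD, n = 4 each) and did not overlap, with an edgeR adjusted p of 0.0572. Of the bridging ligands, Gas6 averaged 295 ± 15.5 CPM in KO and 310.4 ± 25.6 CPM in WT and Mfge8 averaged 323 ± 22.3 CPM in KO and 387 ± 54.2 CPM in WT (edgeR adjusted p 0.755 and 0.339).

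The receptor Tyro3 had the smallest p of the ligand and receptor list. It had 5.89, 4.97, 10.9 and 0.313 CPM in the KO libraries, against 20.2, 21.2, 15.2 and 15.4 CPM in the WT libraries, with KO replicate 6 far below the other KO libraries. The groups did not overlap, but the spread was wide and the gene was not called (−1.71, SE 0.70, edgeR adjusted p = 0.28). Mertk, the engulfment receptor of the pigment epithelium, averaged 1.601 ± 0.893 CPM in KO and 1.19 ± 0.585 CPM in WT (SD, n = 4 each) and the integrin Itgb5 averaged 20.4 ± 2.43 CPM in KO and 18.5 ± 3.54 CPM in WT. Both overlapped between the genotypes (edgeR adjusted p 0.7 and 0.688).

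Synaptic adhesion was the list outside the clock with the most calls, and it too was drawn up with earlier results of these data known. Of 24 genes 5 were called, all higher in KO (against 1.06% of all tested genes), with a list median of 0.18. Unc5c and Unc5b are netrin receptors. Unc5c had 18.9, 19.9, 10.7 and 31.7 CPM in the KO libraries, against 5.31, 3.56, 2.67 and 4.43 CPM in the WT libraries and Unc5b had 5.93, 8.26, 8.602 and 6.82 CPM in the KO libraries, against 4.95, 3.67, 3.798 and 3.05 CPM in the WT libraries, with no overlap in either (log2 fold changes 2.34 and 0.93, SE 0.35 and 0.16, and adjusted p 0.000114 and 0.000595 by edgeR). Elfn2, a leucine-rich repeat protein that binds metabotropic glutamate receptors, had 36.9, 44.2, 48.5 and 40.5 CPM in the KO libraries, against 23.4, 25.7, 25.6 and 19.5 CPM in the WT libraries (log2 fold change 0.85, SE 0.16, adjusted p = 0.0012, edgeR). Cadm3, a cell adhesion molecule of the nectin-like family, had 207, 205, 240.4 and 191 CPM in the KO libraries, against 141, 147, 162 and 161 CPM in the WT libraries (log2 fold change 0.47, SE 0.12, adjusted p = 0.0289, edgeR). The call of Cadm3 was lost in 6 of 19 alternatives (highest adjusted p 0.121), among them those without KO replicate 1, 4 or 5 and without WT replicate 1 or 3.

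Nyx encodes nyctalopin, which organises the receptor complex at bipolar cell dendrites, and it is at the same time a bipolar cell marker. It had 10.1, 7.88, 6.84 and 9.42 CPM in the KO libraries, against 3.32, 3.23, 1.77 and 2.32 CPM in the WT libraries (log2 fold change 1.68, SE 0.21, adjusted p = 2.62e-06, edgeR). The 15 tested bipolar markers as a group averaged 4.22 ± 0.20 log2 CPM in KO and 3.80 ± 0.52 log2 CPM in WT (SD, n = 4 each; exact permutation p = 0.257, two-sided), and Nyx was the only 1 of them called. Trpm1, the channel of ON bipolar cells, averaged 44.8 ± 8.67 CPM in KO and 29.1 ± 18.9 CPM in WT and Grm6, their glutamate receptor, 27.4 ± 4.99 CPM in KO and 20.2 ± 11.1 CPM in WT (edgeR adjusted p 0.535 and 0.601). The part of bipolar cell RNA in the Nyx difference was not tested. In the ribbon synapse list 0 of 25 genes were called, against 1.58% of all tested genes, at which a list of this size holds fewer than 1 called gene. Its smallest adjusted p was that of the complexin Cplx3, which averaged 98.3 ± 8.41 CPM in KO and 141 ± 29.7 CPM in WT (SD, n = 4 each; edgeR adjusted p = 0.0667).

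Among 25 tested genes of dopamine, melatonin and cAMP signalling 2 were called, Akap5 and Hrh3, against 1.58% of all tested genes. Hrh3, the histamine H3 receptor, had 6.91, 8.23, 8.95 and 6.79 CPM in the KO libraries, against 3.23, 1.999, 1.43 and 1.25 CPM in the WT libraries (log2 fold change 1.95, SE 0.35, adjusted p = 0.00112, edgeR). No library of either genotype overlapped the other. Adcy1, the calcium-stimulated adenylyl cyclase, averaged 624 ± 36.3 CPM in KO and 454 ± 82.5 CPM in WT (edgeR adjusted p = 0.0637), and the dopamine receptor Drd4 averaged 660.4 ± 39.3 CPM in KO and 717 ± 95.6 CPM in WT (edgeR adjusted p = 0.663; SD, n = 4 each). Of 21 collagen and basement membrane genes 3 were called, Col4a3 and Col4a4 higher and Col5a3 lower, against the same 1.58%, with a list median of 0.43.

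The counts of the metabolic lists are read against the 1.58% called over all tested genes, at which a list of this size holds fewer than 1 called gene. Of the 24 genes of glycolysis and lactate, the 25 tested of fatty acid oxidation and ketone bodies and the 24 of fatty acid synthesis and elongation, 0 were called, with medians of −0.07, −0.04 and −0.10. The smallest adjusted p were 0.0912 in the glycolysis list, for the glucose transporter Slc2a1, and 0.0608 in the fatty acid synthesis list, for the desaturase Fads2 (edgeR). In cholesterol synthesis 1 of 20 genes was called, the lanosterol synthase Lss, with 52.7, 54.4, 57.9 and 60.7 CPM in the KO libraries, against 40.9, 49.7, 52.3 and 44.9 CPM in the WT libraries (log2 fold change 0.27, SE 0.07, adjusted p = 0.0412, edgeR). The groups did not overlap by a small margin, and the call was lost in 11 of 19 alternatives (highest adjusted p 0.316), among them those without KO replicate 4, 5 or 6 and without WT replicate 1 or 5. None of 28 autophagy genes and none of 11 cold-inducible RNA-binding genes was called.

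In the unfolded protein and stress list 1 of 24 genes was called, against 1.58% of all tested genes. Ddit4, an inhibitor of the growth kinase mTORC1, had 168, 151, 153 and 158 CPM in the KO libraries, against 196, 197, 213 and 238 CPM in the WT libraries (log2 fold change −0.42, SE 0.10, adjusted p = 0.0241, edgeR). All KO libraries were below all WT libraries, and the call was lost in 6 of 19 alternatives (highest adjusted p 0.138), those with the lens covariate, alone or with the inner retina covariate, and those without KO replicate 4, 5 or 6 and without WT replicate 5. None of 21 heat shock and chaperone genes was called although the list median was −0.27, and none of 17 tested immediate early genes was called, with a median of −0.25. Fos had 40.9, 36.3, 16.2 and 29.3 CPM in the KO libraries, against 36.7, 44.9, 54.7 and 38.7 CPM in the WT libraries, which overlapped (edgeR adjusted p = 0.528). The 11 tested mitochondrially encoded genes had a median of 0.42 with 0 called. Mitochondrial genes took 1.64% to 2.29% of the counts in KO libraries and 1.16% to 1.86% in WT libraries.

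Of 11 tested clock output and cell cycle genes 1 was called, Usp2, against 1.58% of all tested genes. This deubiquitinase gene, known for its daily rhythm, had 278, 332, 317 and 299.6 CPM in the KO libraries, against 182, 213, 219 and 212 CPM in the WT libraries (log2 fold change 0.57, SE 0.09, adjusted p = 0.00026, edgeR). The genotypes did not overlap.

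**Figure D3:**
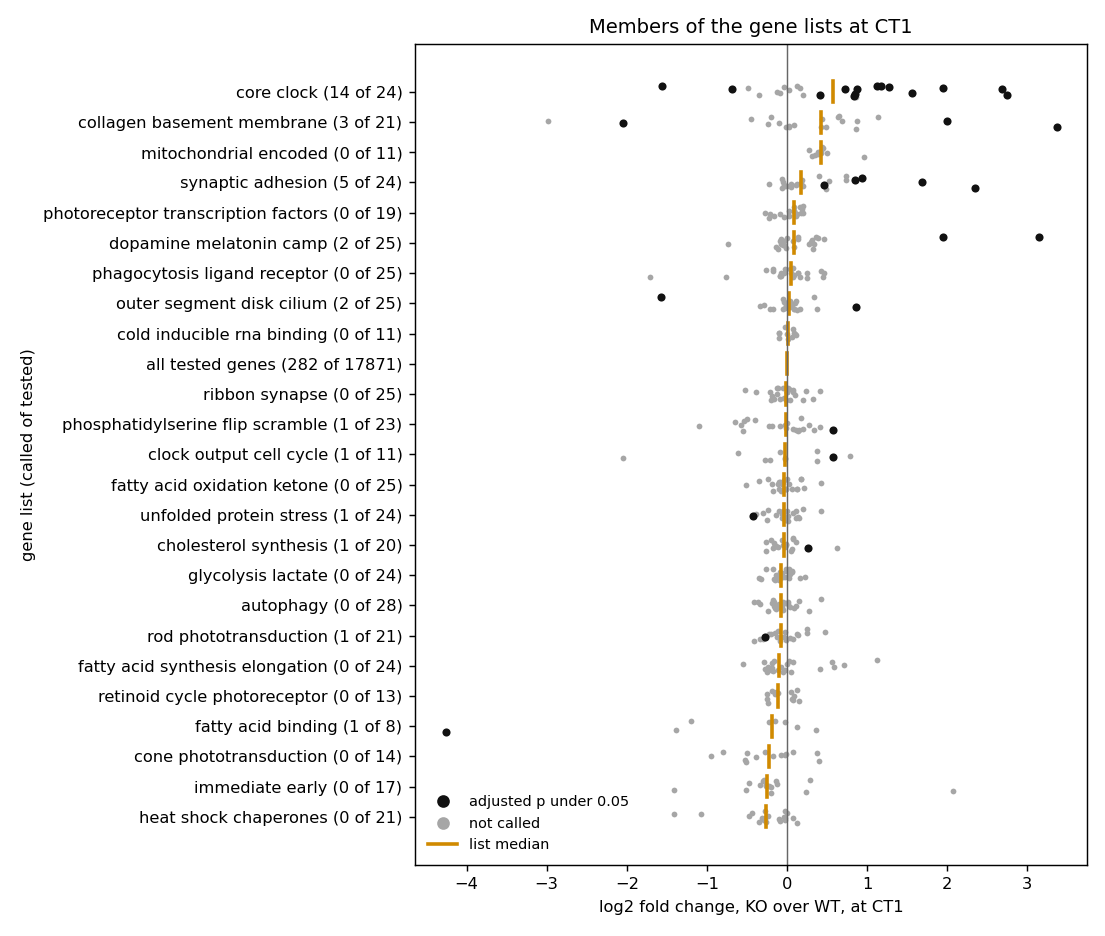
Log2 fold changes (KO over WT) at CT1 of the tested members of 24 gene lists, ordered by list median. Each point is 1 gene, black where its edgeR adjusted p was under 0.05, and vertical bars are list medians, shown also for all 17871 tested genes. The core clock list holds 14 black points and synaptic adhesion 5, while the phagocytosis ligand and receptor list holds none.

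Whether a genotype difference at CT1 differed from that at the other 3 times was tested directly. None of 17871 genes was called for this difference by edgeR (0.00%, smallest adjusted p 0.525), with 1565 genes (8.76%) at an unadjusted p under 0.05, and DESeq2 called 0 genes, with 1663 at an unadjusted p under 0.05. Without WT replicate 4, edgeR called Acvr2b, an activin receptor gene outside the naming rule (difference 0.65, SE 0.11, adjusted p = 0.0485), which stood at 0.48 (edgeR adjusted p = 0.525) with all libraries. Comparisons at single times use separate libraries of both genotypes, but they share 1 estimate of the spread per gene over all 32 libraries and are not fully independent. Over the mean of CT19, CT22 and CT10, 2587 tested genes were called (14.5%), 2102 with the sign of CT1 (11.8%) and 485 with the opposite sign. Among the 282 genes called at CT1, 238 (84.4%) were called in the same direction and 0 in the opposite one. The share was 170 of 190 for genes higher in KO and 68 of 92 for lower genes. At each of the 3 other times the fold change had the sign of CT1 in 244 of the 282 genes, against 4481 of all 17871 tested genes. Of the 282 genes, 67 were called at no other single time, where 5.19% (CT19), 1.53% (CT22) and 10.2% (CT10) of tested genes were called. The median log2 fold change of the higher genes was 0.81 at CT1, 0.66 at CT19, 0.61 at CT22 and 0.61 at CT10, and that of the lower genes −0.68, −0.40, −0.38 and −0.26. These genes were selected at CT1, so their values at CT1 are not on the same footing as those at the other times.

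For some named genes the fold changes are set side by side over the 4 times. Ddit4 stood at −0.42 at CT1, against −0.08 at CT19, −0.00 at CT22 and −0.02 at CT10 (log2 fold changes, KO over WT). Pcdh15 stood at 0.86, against −0.13, 0.60 and −0.10 at the same times, where neither gene was called. Atp11a stood at 0.57, against 0.10, 0.27 and 0.32, and was also called at CT10 (edgeR adjusted p = 0.0348) and over the mean of the 3 other times (0.23, SE 0.06, edgeR adjusted p = 0.00659). Tef stood at 1.27, against 1.14, 1.16 and 1.12, and Arntl at −0.68, against −0.79, −0.73 and −0.77. The adjusted p of the difference between CT1 and the other times was 0.525 for Ddit4, 0.525 for Pcdh15 and 0.525 for Atp11a (edgeR), so a difference between times was called for none of the 3.

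**Figure D4:**
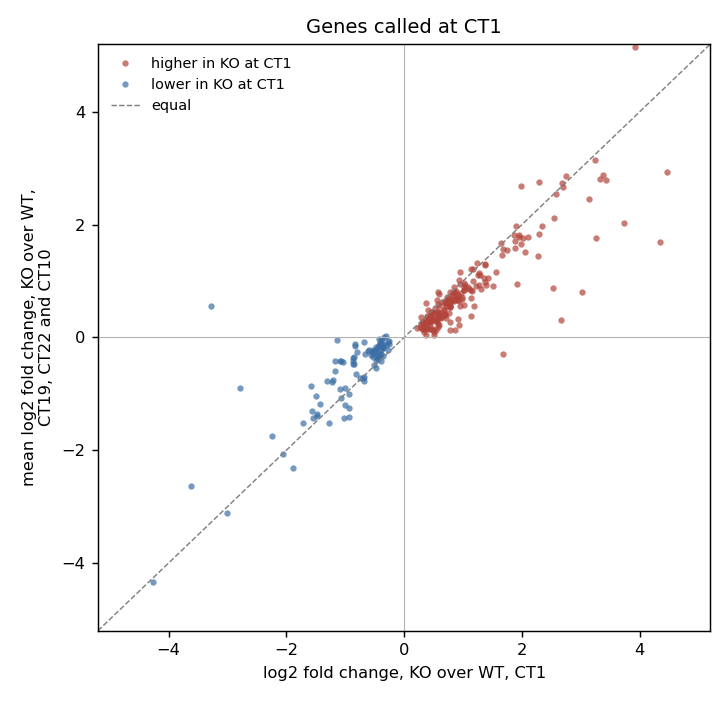
Log2 fold change (KO over WT) at CT1 against the mean log2 fold change at CT19, CT22 and CT10 for the 282 genes called at CT1. Each point is 1 gene, the dashed line marks equal values, and 279 of the 282 points have the same sign on both axes. Over all 17871 tested genes, 10924 have the same sign in both.

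The share of called genes by chromosome is given as a description, with no test. Chromosome 10 held 29 calls among 837 tested genes (3.46%), chromosome 15 18 among 681 (2.64%) and chromosome 11, which carries Per1, 33 among 1320 (2.5%), against 1.58% overall. Chromosome 1, which carries Per2, held 18 among 1153 (1.56%). Within 20 Mb of Per1, 15 of 563 other genes were called (2.66%), of which 5 rose and 10 fell in KO, and within 20 Mb of Per2, 6 of 225 (2.67%). The 3 named genes nearest to Per1 were Chd3, Chrnb1 and Kctd11, at 0.233, 0.674 and 0.768 Mb. Chd3, a chromatin remodeller, averaged 52.9 ± 4.14 CPM in KO and 37.4 ± 4.47 CPM in WT, Chrnb1, a subunit of the muscle acetylcholine receptor, 5.37 ± 0.768 CPM in KO and 12.1 ± 0.786 CPM in WT, and Kctd11, an adaptor of cullin ubiquitin ligases, 3.66 ± 0.796 CPM in KO and 6.604 ± 0.512 CPM in WT (SD, n = 4 each). Their log2 fold changes were 0.50, −1.17 and −0.85, with edgeR adjusted p of 0.00413, 0.00151 and 0.00776, and the call of Kctd11 was lost in 2 of 19 alternatives, without KO replicate 4 and with only the CT1 libraries (highest adjusted p 0.0572).

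Near Per2, the kelch protein gene Klhl30 lay at 0.0536 Mb and had 2.53, 5.83, 5.12 and 2.82 CPM in the KO libraries, against 1.597, 1.31, 0.376 and 1.85 CPM in the WT libraries (log2 fold change 1.67, SE 0.41, adjusted p = 0.0269, edgeR). D2hgdh, which encodes D-2-hydroxyglutarate dehydrogenase, lay at 2.37 Mb and had 3.47, 4.21, 3.102 and 3.504 CPM in the KO libraries, against 5.87, 7.12, 9.93 and 5.84 CPM in the WT libraries (log2 fold change −1.01, SE 0.24, adjusted p = 0.0211, edgeR). Neither overlapped between the genotypes. The calls were lost in 8 of 19 and 5 of 19 alternatives, with highest adjusted p of 0.133 and 0.0817. Among the libraries left out, KO replicates 4 and 5 and WT replicates 3 and 4 ended the call of Klhl30, and KO replicates 1, 5 and 6 and WT replicate 4 that of D2hgdh. Col4a3, the third nearest, lay at 8.69 Mb. The strain label is the same for both genotypes, and whether chromosome segments linked to the alleles differ between them was not tested.

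Cell type markers were compared over the 8 libraries with exact two-sided permutation tests, whose smallest possible p is 0.0286. Pigment epithelium markers averaged 0.97 ± 0.46 log2 CPM in KO and 0.44 ± 0.08 in WT (SD, n = 4 each; exact permutation p = 0.0286, adjusted p = 0.228 over 12 lists). All 14 tested pigment epithelium markers were higher in KO, with log2 fold changes of 0.15 to 2.29, and 0 were called. Their median was 0.45 at CT1 and −0.09 over the other 3 times. Horizontal cell markers averaged 3.13 ± 0.10 in KO and 2.71 ± 0.31 in WT (exact permutation p = 0.0571), with a difference of 0.53 (exact permutation p = 0.0286) without WT replicate 3. Leaving out any other single library gave these markers an exact permutation p of 0.0571 to 0.143. Without any 1 of the WT libraries the exact permutation p of the pigment epithelium markers was 0.0571. Müller and amacrine markers differed by −0.02 and −0.05 log2 CPM, a sign that changed without KO replicate 5 or WT replicate 1. None of the 12 lists passed after adjustment. A single list at the smallest possible p could not pass it, so this outcome decides nothing on cell mixture. Lens markers were the most variable, with sums of 889 to 8423 CPM in KO libraries and 3858 to 15270 CPM in WT libraries and a mean difference of −1.73 log2 CPM (exact permutation p = 0.114), which was −2.39 (exact permutation p = 0.0286) without KO replicate 5. For the lens markers the exact permutation p was 0.114 to 0.229 without any other single library. A fit that included the lens level called 267 genes and shared 228 calls with the 282, and a fit that included lens and inner retina levels called 270 and shared 223. Lower genes numbered 83 and 75 in these fits, and the part of lens RNA in the lower genes was not tested further.

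**Figure D5:**
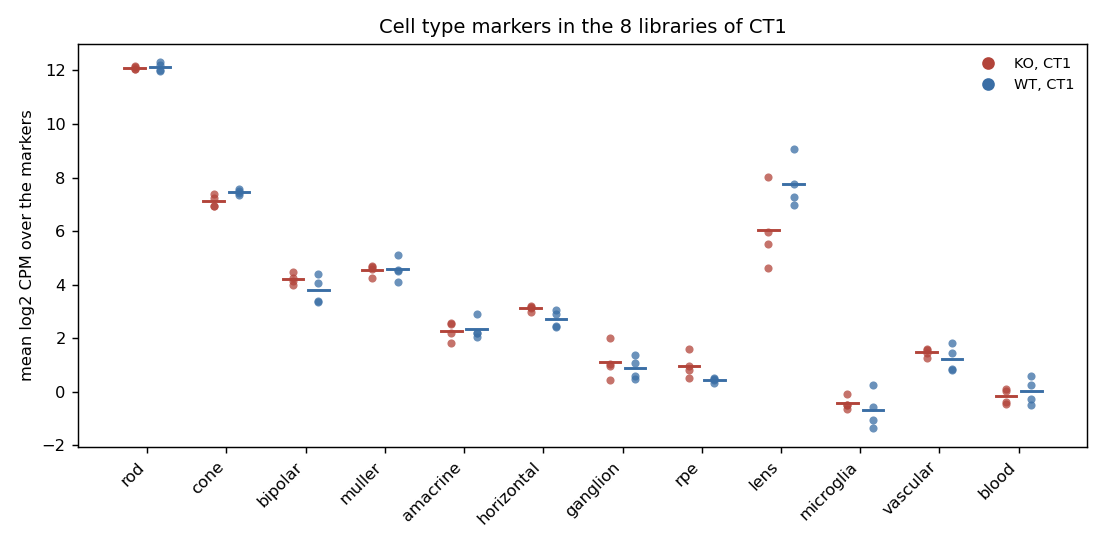
Mean log2 CPM of 12 cell type marker lists in the 8 libraries of CT1, KO left of WT. Points are libraries and bars are group means. Rod markers average 12.09 in KO and 12.11 in WT, and lens markers spread most between libraries.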

How the data were processed

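RNA of laser-microdissected mouse photoreceptors was sequenced after KAPA mRNA HyperPrep library preparation, per the labels' protocols. The deposited table holds raw read counts per Ensembl gene for 54232 genes in 32 libraries. Per the submitters' processing notes, the authors worked with genome build GRCm38.p6 and with the tools HISAT2 2.1.0, HTSeq 0.11, Trimmomatic 0.32 and Cufflinks. Neither the annotation release nor the strand setting is given in the sources used here, and without strand, reads of overlapping genes on opposite strands cannot be told apart. Exons of 8 of the 60 named genes overlap a tested gene on the opposite strand: Abi3, Bhlhe41, Csnk1d, Dbp, Gnb5, Nr1d1, Tef and Tpbgl. Gene names were matched for 99.72% of the IDs.

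The analysis used edgeR 4.0.16 in R 4.3.3. Low genes were removed with filterByExpr (8 groups, minimum count 10, minimum total 15), and libraries were scaled by TMM. A single model held the 32 libraries with a mean per group and had 24 residual degrees of freedom, at a common biological coefficient of variation of 0.199. Contrasts were tested with the robust quasi-likelihood test, with Benjamini-Hochberg adjustment of p over 17871 genes. The procedure was tested on simulated data with known changes. Marker levels are means of log2 CPM (prior count 2) and were compared by exact permutation.

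Named genes are Per1 and Per2, the core clock list, the 12 highest and 12 lowest fold changes, the 10 smallest p, up to 6 called members of each list, genes called for CT1 against the other times (there were none), and the 3 called genes nearest to each targeted gene, and some list members are not reported here. For the ranked sets a gene needed an average log2 CPM of at least 1, a symbol that is not provisional and a protein-coding biotype. Members and lists were chosen with earlier results of these data known. Alternatives were other scaling, filters and dispersion, DESeq2 1.42.0, marker covariates, a replicate block, a library-number term, only the CT1 libraries, and leaving out each CT1 library. No pair of CT1 libraries of a group was alike within sampling noise.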

Additional observations from a re-analysis of the deposited data

Results flagged for a closer look

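Of 144 groups of 4 libraries checked (60 genes and 12 marker lists in 2 genotypes), 8 held a library whose distance from its nearest neighbour took a share of the group's range above Dixon's critical value, where chance gives about 1 in 20. WT replicate 4 was highest among the WT libraries for Per1 (0.856 of the range), Per2 (0.851) and Kctd11 (0.962), at 143, 44.3 and 7.37 CPM, against at most 101, 27.8 and 6.36 CPM in the other WT libraries. WT replicate 5, the library whose title carries 2 animal numbers, was lowest in WT for Nr1d2 (0.881, at 144.7 CPM) and Baiap2 (0.9, at 2.45 CPM). Among the KO libraries, replicate 5 was lowest for Per2 (0.943, at 169 CPM), and replicate 1 was highest for Nr1d2 (0.864, at 339 CPM) and Gnb5 (0.951, at 1049 CPM). KO and WT libraries did not overlap in any of these genes.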

How the results depend on the processing

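The 282 calls became 286 with DESeq2 size factors, 223 without a filter, 304 with a stricter filter (1 CPM in 8 libraries), 298 without robust dispersion, 328 with an inner retina covariate and 291 with a library-number term, 180 with only the CT1 libraries (fewer degrees of freedom) and 480 with the DESeq2 test, for which the cause was not tested. Without each CT1 library they ranged over 189 to 354, and genes called for CT1 against the other times over 0 to 1. Of 52 named genes called, 41 were called in all alternatives, and of 8 not called, Bhlhe40 was called in 3 (the lens covariate, without KO replicate 1, and DESeq2). The lens covariate, alone or with the inner retina covariate, ended the calls of Igf2bp2, Rab37, Gnb5, Lss, Ddit4, Cadm3, Klhl30 and D2hgdh, and the inner retina covariate alone that of Pcdh15. Without each library Csnk1e stood at −0.089 to 0.035. Marker differences without each library ranged over −0.070 to 0.043 (rod), −0.41 to −0.26 (cone), −0.18 to 0.17 (Müller), −0.15 to 0.14 (amacrine), 0.33 to 0.53 (horizontal), −0.068 to 0.45 (ganglion), 0.33 to 0.69 (pigment epithelium), −2.39 to −1.26 (lens) and −0.36 to 0.0015 (blood). Deviations of same-numbered KO and WT libraries correlated at −0.0385, −0.0352 and 0.21, and those of differently numbered ones at −0.167 to 0.0893. So few pairs cannot tell whether the numbers pair the samples. The replicate block gave 254 calls (0 for CT1 against the other times), with those of Pcdh15, Lss and Rab37 lost. Depth limits the lowest genes: 1 CPM was 24.9 counts in the shallowest library.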

Other observations

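Among tested genes with a promoter window, 102 of 11435 held a D-box (0.892%). Among called genes with a window, 0 of 70 lower in KO and 9 of 132 higher in KO held one. Of these 9 called genes, those outside the clock list are given here, chosen after their values were seen. Txndc16, a thioredoxin-domain protein of the endoplasmic reticulum, had 164, 156, 136 and 156 CPM in the KO libraries, against 87.7, 87.2, 87.2 and 85.6 CPM in the WT libraries. The WT libraries were nearly equal and all below KO (log2 fold change 0.82, SE 0.08, adjusted p = 1.59e-08, edgeR). Trak1, an adaptor of mitochondrial transport along microtubules, had 332, 372, 294 and 343 CPM in the KO libraries, against 166, 198, 177 and 174 CPM in the WT libraries (log2 fold change 0.91, SE 0.09, adjusted p = 1.26e-08, edgeR). Jdp2, a bZIP repressor that binds AP-1 sites, had 4.49, 6.11, 5.08 and 7.13 CPM in the KO libraries, against 1.82, 1.42, 1.32 and 1.59 CPM in the WT libraries (log2 fold change 1.89, SE 0.23, adjusted p = 1.97e-06, edgeR). Coq10b, a coenzyme Q-binding protein of mitochondria, had 32.4, 25.6, 23.1 and 25.2 CPM in the KO libraries, against 11.8, 8.43, 10.7 and 13.5 CPM in the WT libraries, and its window also held an E-box (log2 fold change 1.26, SE 0.16, adjusted p = 3.28e-06, edgeR). Galnt13 and Smim10l1 averaged 28.4 ± 5.36 CPM in KO and 12.9 ± 0.952 CPM in WT and 71.9 ± 5.54 CPM in KO and 38.8 ± 6.35 CPM in WT (SD, n = 4 each), and neither overlapped. The remaining ones were Gm15348, Gzmm and Per3.

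Gzmm, which encodes the serine protease granzyme M, was called higher with both an E-box and a D-box in 1 window (chr10:79693772-79693855, plus strand, positions −54 to 30, RefSeq, GRCm38.p6), shown here with both in capitals.
Gzmm: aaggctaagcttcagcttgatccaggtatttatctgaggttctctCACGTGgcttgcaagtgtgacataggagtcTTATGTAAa
It had 148, 186, 154 and 166 CPM in the KO libraries, against 50.96, 26.9, 35.4 and 62.3 CPM in the WT libraries, with no overlap (log2 fold change 1.90, SE 0.21, adjusted p = 7.03e-07, edgeR). At CT19, CT22 and CT10 its log2 fold changes were 2.02, 1.99 and 1.93. It lies on chromosome 10 in a stretch from 75 to 80 Mb where 5 of 90 tested genes were called (5.56%), against 3.46% on chromosome 10 and 1.58% over all tested genes. The stretch was picked for its count, so the share is a description. The others called there were Slc19a1, Hcn2, Pdxk and Lss, all higher in KO. Hcn2, a channel opened by hyperpolarisation, had 23.8, 32.2, 28.5 and 27.7 CPM in the KO libraries, against 13.3, 12.3, 13.99 and 13.1 CPM in the WT libraries (log2 fold change 1.09, SE 0.16, adjusted p = 6.15e-05, edgeR). Acap1, an ARF GTPase-activating protein 0.772 Mb from Per1, was under the level required for naming and had 0.1404, 0.158, 0.03198 and 0.0313 CPM in the KO libraries, against 0.456, 1.16, 0.865 and 0.516 CPM in the WT libraries (log2 fold change −3.01, SE 0.69, adjusted p = 0.0139, edgeR).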
